A study of Mus musculus with 7 samples.

Results

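The genes described here are 10 mouse genes of leukocyte adhesion and homing, chosen by name from 22628 Ensembl genes in a table of RNA-seq counts of whole tumors. On the vessel side they are Vcam1, Icam1, Icam2, Sele and Selp, and on the leukocyte side Selplg, Itga4, Itgal, Itgb7 and Itgb1. Each symbol matched 1 gene identifier, and all 10 genes passed the filter on low counts that left 17489 genes for testing. The table held 7 subcutaneous (s/c) mouse pancreatic ductal adenocarcinoma (PDA) tumors, harvested 2 weeks after inoculation of C57BL/6 hosts with 1242 KPC cells. This line comes from a tumor of a mouse with Trp53 R172H and Pdx1-Cre, in which Cre is active in the pancreatic lineage. Hosts were 6 weeks old when purchased and were housed for a further 2 weeks. All tumors carried the scrambled guide (sgScramble) with SpCas9. The 3 control tumors, labelled scramble and numbered 1, 4 and 5, are called sgScramble tumors, and the 4 tumors labelled scrambleOVA and numbered 15, 16, 18 and 2 are called icOVA tumors. The cells of the icOVA tumors also expressed intracytoplasmic ovalbumin, a foreign antigen, from a doxycycline-inducible lentivirus; they were sorted, cloned from single cells, and induced with doxycycline in the food from the day of inoculation. Whether the sgScramble cells carried an empty vector, were a single clone, or grew in mice given doxycycline was not stated for these samples, so the antigen, the clone and the drug cannot be told apart in this comparison. The labels do not say whether the tumors of a group came from separate mice, and p-values measure the spread between these tumors.

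Leukocytes leave the blood in steps. Selectins on the activated vessel wall, E-selectin (Sele) and P-selectin (Selp), catch passing cells through a sugar-bearing ligand, PSGL-1 (Selplg), and the cells roll. Integrins on the leukocyte then bind immunoglobulin-family ligands on the endothelium and hold the cell in place: LFA-1, made of the Itgal and Itgb2 chains, binds ICAM-1 and ICAM-2, VLA-4, made of Itga4 and Itgb1, binds VCAM-1, and Itga4 paired with Itgb7 binds MAdCAM-1 (Madcam1) and VCAM-1. These genes differ in how narrowly they are expressed: Icam2 and Sele are largely endothelial, P-selectin is also stored in platelets, Vcam1 and Icam1 can be made by fibroblasts, macrophages and epithelial cells, and Itgb1 is made by nearly every cell that adheres. In whole tumors, fewer cells of a type and less RNA per cell cannot be told apart.

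Sele and Selp lie close together on chromosome 1. In GENCODE coordinates of GRCm38, Sele is at chr1:164048234-164057677 and Selp at chr1:164115264-164150026, both on the plus strand. Of the 10 genes, 6 matched a promoter entry in the RefSeq table of GRCm38.p6 and 4 did not (Vcam1, Icam2, Selplg and Itgal). The 250 bases before the annotated start are shown for 3 vessel genes that differed in their response: Selp rose, Sele separated the groups without passing the test, and Icam1 did neither. Capitals mark matches, on either strand, to GGNNNTTCC (a kappaB-type motif), TGANTCA (AP-1-type) or TGANNTCA (ATF-type). The windows are read 5′ to 3′ on the plus strand, at chr1:164115014-164115263 for Selp, chr1:164047984-164048233 for Sele and chr9:21015690-21015939 for Icam1.
Selp: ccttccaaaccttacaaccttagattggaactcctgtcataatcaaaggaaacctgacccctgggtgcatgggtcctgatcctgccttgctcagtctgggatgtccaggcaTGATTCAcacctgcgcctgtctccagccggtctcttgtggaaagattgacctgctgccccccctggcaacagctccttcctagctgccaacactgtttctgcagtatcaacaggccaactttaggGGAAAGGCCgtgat
Sele: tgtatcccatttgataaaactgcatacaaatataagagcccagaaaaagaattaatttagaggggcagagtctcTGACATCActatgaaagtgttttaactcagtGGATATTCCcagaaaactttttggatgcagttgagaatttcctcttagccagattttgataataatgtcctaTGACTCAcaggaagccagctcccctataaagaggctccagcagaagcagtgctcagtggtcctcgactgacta
Icam1: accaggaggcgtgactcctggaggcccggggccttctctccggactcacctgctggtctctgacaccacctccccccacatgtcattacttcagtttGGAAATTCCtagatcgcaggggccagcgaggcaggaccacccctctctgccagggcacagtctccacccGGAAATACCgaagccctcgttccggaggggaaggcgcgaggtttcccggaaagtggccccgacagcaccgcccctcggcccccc
Selp had 1 kappaB-type match 14 bases before the start and 1 AP-1-type match 139 bases before it. Sele had 1 kappaB-type match at 145 bases, 1 AP-1-type match at 73 and 1 ATF-type match at 176. Icam1 had 2 kappaB-type matches, at 153 and 84 bases, and neither of the other motifs. Among the other 3 members with a window, Itgb1 had 1 kappaB-type match, and Itga4 and Itgb7 had no match to any of the 3 motifs. Such matches were common: 15.7% of 32851 windows of the same length held the kappaB-type motif, 6.75% the AP-1-type motif and 11.9% the ATF-type motif. A match is a description of these letters and does not show that a factor binds there.

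The tumors were sequenced to between 30904855 and 37510591 counts. Levels are given as CPM, the counts of a gene scaled to its tumor's total over the tested genes, adjusted by the normalization factor (TMM) of edgeR. OVA, the ovalbumin transcript that checks the labels, was at 2.58 to 4.35 CPM in the sgScramble tumors and at 98.2 to 308 CPM in the icOVA tumors (log2 5.99 ± 0.47 (SE), edgeR adjusted p = 0.0143). Fold changes throughout are icOVA over sgScramble. Unless another tool is named, the adjusted p is that of the quasi-likelihood test in edgeR, corrected over all 17489 genes by the Benjamini-Hochberg method and read at a threshold of 0.05. The median log2 fold change of all genes tested was -0.0048. Over the whole table, 588 genes were higher in icOVA tumors, which is 3.36% of those tested, and 444 were lower, which is 2.54%.

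Of the 10 adhesion genes, 4 rose in icOVA tumors and 0 fell. Selp was the only vessel gene among the 4, and Selplg, Itga4 and Itgb7 were the others. For 6 genes, every icOVA tumor was above every sgScramble tumor (the 4 called genes, Sele and Itgal), where 11.3% of all genes tested separated the groups in this direction. In the other direction, 2332 of 17489 genes separated the groups, and 0 of the members on either side did. Vcam1, Icam1 and Itgb1, the 3 most abundant of the 10, had overlapping groups and did not pass the test.

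**Figure D1:**
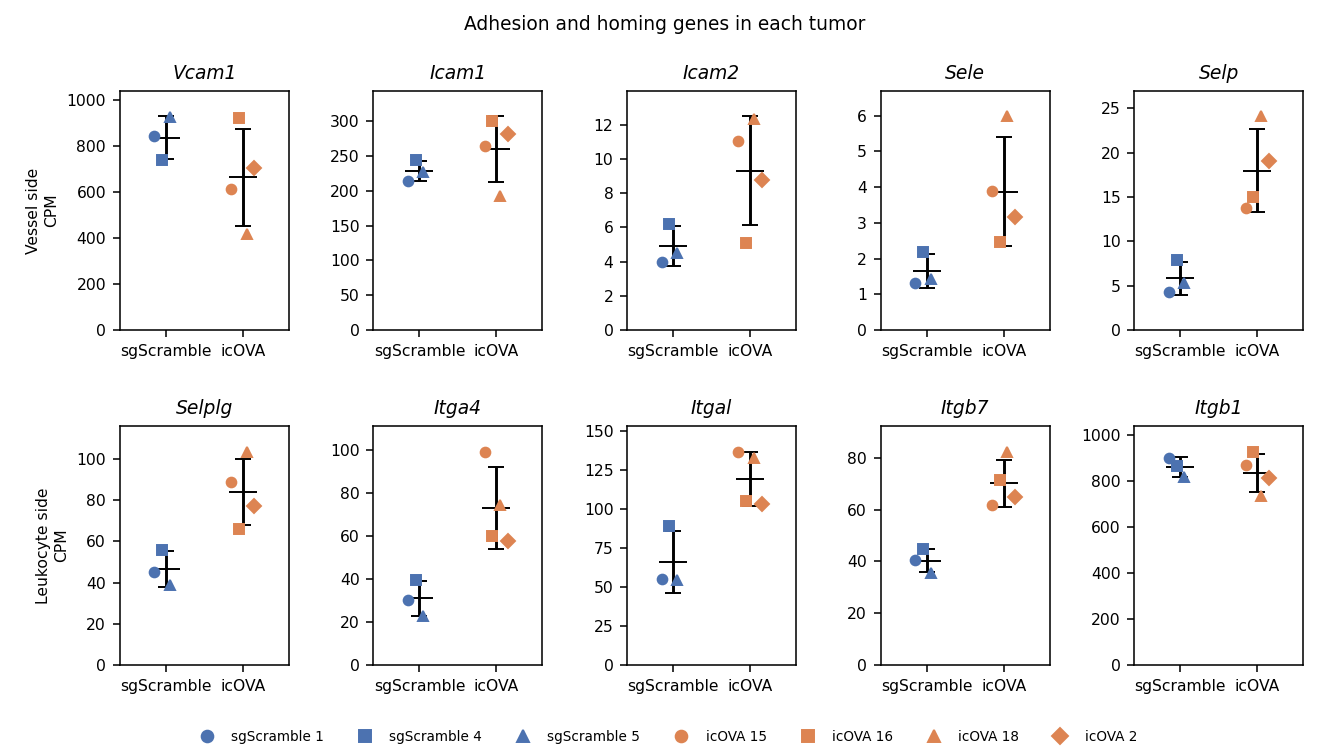
CPM of each gene in each tumor (linear axes from 0), vessel side in the upper row and leukocyte side in the lower row; points are the 3 sgScramble and 4 icOVA tumors, and bars are the mean ± SD. Selp, Sele, Selplg, Itga4, Itgal and Itgb7 had every icOVA tumor above every sgScramble tumor, and Vcam1 was at its lowest, 416 CPM, in icOVA tumor 18.

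Selp was at 4.29, 7.90 and 5.28 CPM in sgScramble tumors 1, 4 and 5 and at 13.8, 14.96, 24.1 and 19.1 CPM in icOVA tumors 15, 16, 18 and 2. The lowest icOVA tumor was thus well above the highest sgScramble tumor, and tumor 18 was the highest of all. P-selectin rose 3.09-fold (log2 1.63 ± 0.27 (SE), adjusted p = 0.0271), the largest fold change of the 10 genes. Its counts ranged from 149 to 838 per tumor. Sele, the other vessel selectin, was at 1.32, 2.19 and 1.44 CPM in the sgScramble tumors and at 3.89, 2.46, 5.98 and 3.17 CPM in the icOVA tumors. The groups did not overlap, but icOVA tumor 16 lay close to sgScramble tumor 4. The log2 fold change of 1.23 ± 0.35 (SE) missed the threshold (adjusted p = 0.0751, 95% interval 0.43 to 2.03). Sele was the least abundant of the genes, with 45 to 208 counts per tumor.

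Icam2, a ligand of LFA-1 that endothelium carries at rest, was at 4.001, 6.20 and 4.51 CPM in sgScramble tumors 1, 4 and 5 and at 11.02, 5.10, 12.3 and 8.77 CPM in icOVA tumors 15, 16, 18 and 2. Only icOVA tumor 16 lay within the sgScramble range. The log2 fold change was 0.92 ± 0.31 (SE) and did not pass (adjusted p = 0.111, 95% interval 0.20 to 1.65). Icam1, the inducible ligand of LFA-1, was at 215, 244 and 226 CPM against 265, 300.4, 192 and 281 CPM. Tumor 18 was the lowest of all 7, and the other icOVA tumors were above every sgScramble tumor. The log2 fold change was 0.19 ± 0.15 (SE, adjusted p = 0.447), with an interval of -0.16 to 0.53.

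Vcam1, the ligand of VLA-4, did not move with the selectins. It was at 845, 739.7 and 925 CPM in the sgScramble tumors and at 612, 922, 416 and 706 CPM in the icOVA tumors. Tumor 16 was as high as the sgScramble tumors, and the other 3 icOVA tumors were below all of them. The log2 fold change was -0.33 ± 0.24 (SE, adjusted p = 0.401, 95% interval -0.89 to 0.22), so a rise in Vcam1 of the size seen for Selp lies outside the interval.

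The vessel genes thus split by tumor. The 12 endothelial markers summed to 304, 397 and 279.6 CPM in sgScramble tumors 1, 4 and 5 and to 588, 311, 806 and 504 CPM in icOVA tumors 15, 16, 18 and 2. Of these 12 markers 0 passed the edgeR test, although 9 were higher at an unadjusted p below 0.05. DESeq2 called 7 of them higher, against 9.09% of all genes it tested, and the median log2 fold change of the 12 was 0.84. Pecam1, an adhesion molecule of endothelial junctions, was at 0.83 ± 0.27 (SE, adjusted p = 0.0985). Their sum was highest in tumor 18, where Selp, Sele and Icam2 were also highest and Vcam1 and Icam1 lowest, and it was lowest among icOVA tumors in tumor 16, where Sele and Icam2 were lowest and Vcam1 and Icam1 highest. Tumor 18 also had the lowest sum of 5 epithelial cancer cell markers (2694 CPM, against 4148 to 4626 CPM in the other 6 tumors) and the highest sum of 7 fibroblast markers (23317 CPM). The fibroblast sum was 3865 CPM in tumor 16 and 4304 to 10707 CPM in the sgScramble tumors. Of the epithelial and fibroblast markers, 0 passed the edgeR test, with 0 and 1 at an unadjusted p below 0.05, and DESeq2 called 0. The part of this cell makeup in the vessel gene differences was not tested.

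**Figure D2:**
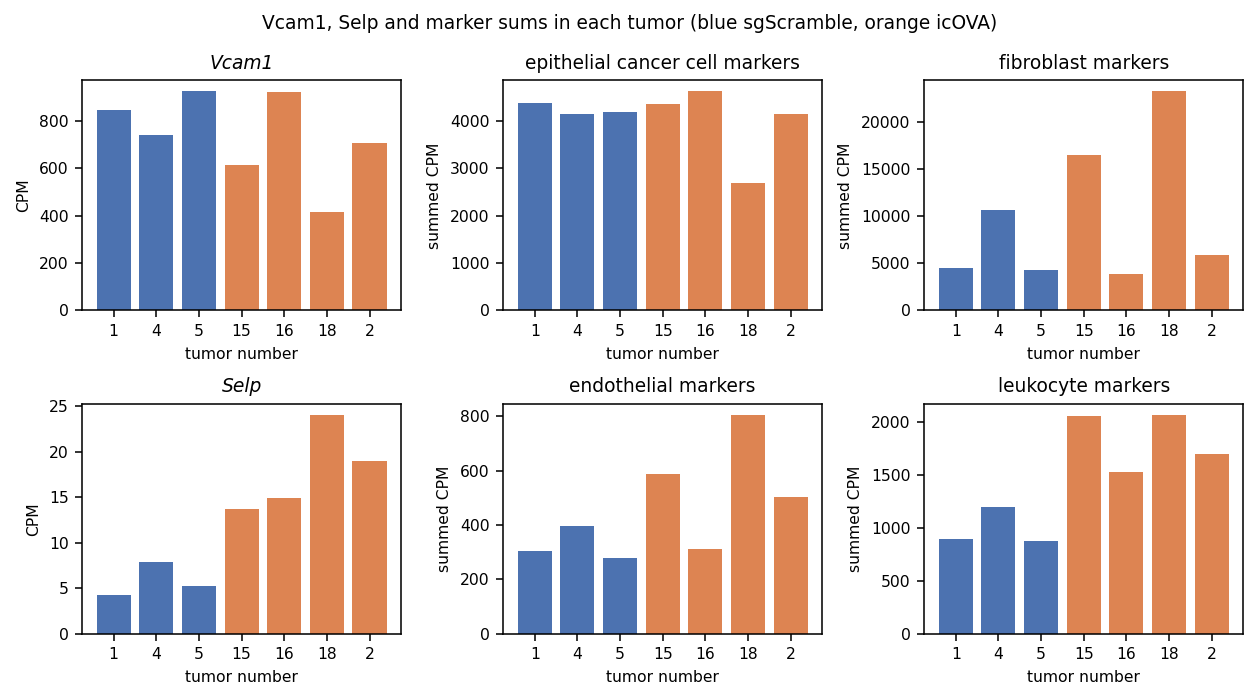
CPM of Vcam1 and Selp and the summed CPM of 4 marker lists in each tumor (bars from 0; blue sgScramble, orange icOVA; 1 bar per tumor). The icOVA tumor with the lowest Vcam1, number 18 at 416 CPM, had the highest Selp, endothelial and fibroblast values and the lowest epithelial sum, while leukocyte sums were 1525 CPM or more in every icOVA tumor and 1201 CPM or less in every sgScramble tumor.

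Set against the endothelial markers of the same tumor, both selectins lay higher in every icOVA tumor, and Vcam1 lay lower in 3 of 4. The ratio was measured as the difference between a gene's log2 CPM and the mean log2 CPM of the 12 markers. The ratio of Selp was -2.04, -1.60 and -1.67 in the sgScramble tumors and -1.31, -0.26, -1.05 and -0.66 in the icOVA tumors, which did not overlap (mean difference 0.95). The ratio of Sele was -3.69, -3.42 and -3.51 against -3.11, -2.83, -3.05 and -3.23, also without overlap (mean difference 0.48). For both, an exact two-sided permutation test gave p = 0.0571, the smallest that 3 tumors against 4 allow, and 0.152 after adjustment over 16 ratios. Icam2 had the smallest difference between groups of the vessel genes (0.19), with a mean ratio of -1.99 ± 0.13 (SD, n = 3) in sgScramble tumors and -1.80 ± 0.16 (SD, n = 4) in icOVA tumors (exact permutation p = 0.171). Vcam1 had a mean ratio of 5.42 ± 0.43 (SD, n = 3) and 4.36 ± 1.09 (SD, n = 4), with 3 of 4 icOVA tumors below every sgScramble tumor (exact permutation p = 0.171, 0.274 adjusted). Icam1 had a mean difference of -0.51 with overlapping groups (exact permutation p = 0.400). Vcam1 and Icam1 can be made by other cells, and P-selectin is also stored in platelets. The ratios of Vcam1, Icam1 and Selp are therefore not levels per endothelial cell. The log2 fold change of Vcam1 itself was -0.33 and the median of the endothelial markers was 0.84, so the rise of the markers also lowers the Vcam1 ratio.

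**Figure D3:**
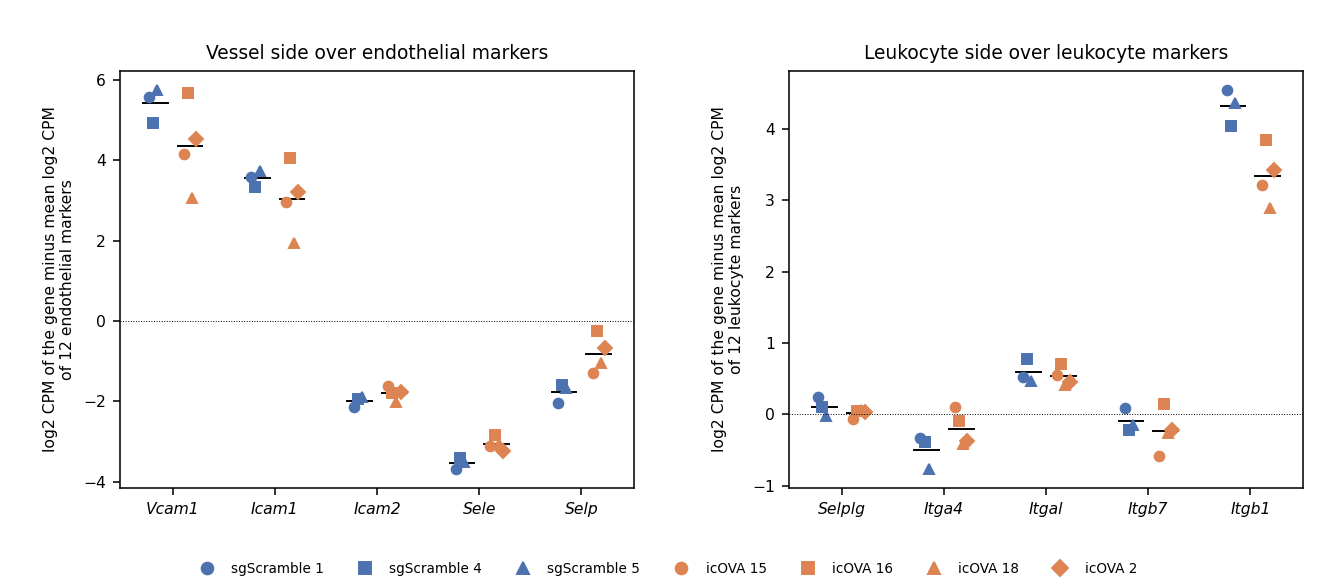
Each gene's log2 CPM minus the mean log2 CPM of 12 endothelial markers (left, vessel side) or 12 leukocyte markers (right, leukocyte side), 1 point per tumor, with group means as lines. Selp and Sele lay higher in all 4 icOVA tumors, Itgb1 lay lower in all 4, and Selplg, Itgal and Itgb7 had mean differences between -0.14 and -0.06 with overlapping groups. Itgb1 itself had a log2 fold change of -0.04, and the leukocyte markers had a median of 0.94.

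On the leukocyte side, Itgb7, the chain that pairs with Itga4 in a gut-homing integrin, was at 40.5, 44.8 and 35.7 CPM in sgScramble tumors 1, 4 and 5 and at 61.8, 71.4, 82.4 and 64.7 CPM in icOVA tumors 15, 16, 18 and 2. All icOVA tumors were higher, and the spread within each group was small. Itgb7 rose 1.74-fold (log2 0.80 ± 0.12 (SE), adjusted p = 0.0246). Itga4, the alpha chain shared by VLA-4 and the Itgb7 integrin, was at 30.5, 39.7 and 23.1 CPM against 99.4, 60.3, 74.4 and 58.0 CPM. The groups were well apart, and tumor 15 was highest. Itga4 rose 2.35-fold (log2 1.23 ± 0.24 (SE), adjusted p = 0.0349), the largest change on this side.

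Selplg, the selectin ligand, was at 45.4, 56.1 and 38.7 CPM in the sgScramble tumors and at 88.8, 66.3, 104 and 77.3 CPM in the icOVA tumors. Tumor 16 was the lowest icOVA tumor and still above all sgScramble tumors. Selplg rose 1.80-fold (log2 0.85 ± 0.18 (SE), adjusted p = 0.0390). Itgal, the alpha chain of LFA-1, was at 55.1, 89.4 and 54.4 CPM against 136, 105, 133 and 103 CPM. Here sgScramble tumor 4 came closest to the icOVA tumors, without reaching them. Its log2 fold change of 0.85 ± 0.20 (SE, 95% interval 0.38 to 1.32) was as large as that of Selplg but missed the threshold narrowly (adjusted p = 0.0505).

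Itgb1, the beta chain of VLA-4 and of many matrix-binding integrins, was at 902, 865 and 818 CPM in the sgScramble tumors and at 869.7, 929, 736 and 814 CPM in the icOVA tumors. The groups overlapped, with 1 icOVA tumor above and 2 below every sgScramble tumor. The log2 fold change was -0.04 ± 0.10 (SE, adjusted p = 0.816), with a 95% interval of -0.27 to 0.19. Of 11 other alpha chains that pair with Itgb1 or can do so, 0 passed the edgeR test in either direction (3 had an unadjusted p below 0.05, and DESeq2 called 1 lower), and their median log2 fold change was 0.11.

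**Figure D4:**
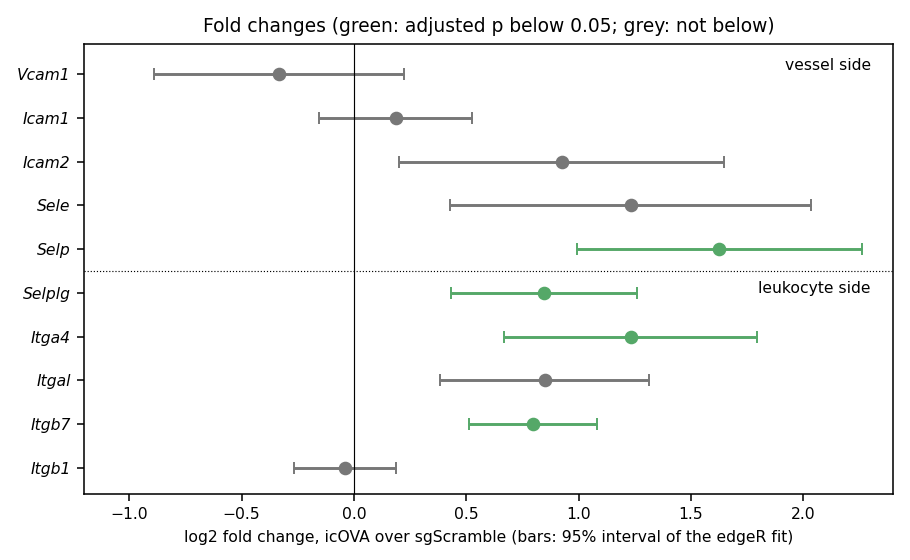
Log2 fold change, icOVA over sgScramble, of the 10 genes (points) with 95% intervals of the edgeR fit (bars); green marks an adjusted p below 0.05. Selp, Selplg, Itga4 and Itgb7 passed, with log2 fold changes of 1.63, 0.85, 1.23 and 0.80, and the intervals of Vcam1, Icam1 and Itgb1 include 0.

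Leukocyte markers rose as well. Of 12 such markers, 8 rose and 0 fell, with a median log2 fold change of 0.94, and their sum was 877 to 1201 CPM in sgScramble tumors and 1525 to 2072 CPM in icOVA tumors. All 8 of the T cell markers rose, with a median of 1.26, and 2 of 8 macrophage and neutrophil markers rose, with a median of 0.63. Of all genes tested, 3.36% were called higher and 2.54% lower. Ptprc, the pan-leukocyte phosphatase CD45, rose by 1.08 ± 0.18 on the log2 scale (SE, adjusted p = 0.0271). Relative to the 12 markers, Selplg, Itgal and Itgb7 differed between groups by -0.09, -0.06 and -0.14 in mean log2 ratio, and Itga4 by 0.30, all with overlapping groups and exact permutation p-values from 0.286 to 0.571. Itgb1 was lower relative to the markers in every icOVA tumor (mean difference -0.98, exact permutation p = 0.0571, 0.152 adjusted). The log2 fold change of Itgb1 itself was -0.04, so this difference largely restates the rise of the markers. Itgb1 is made by nearly every cell that adheres, so its ratio is not a level per leukocyte.

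Scaling the libraries to markers in place of all genes changed the calls. Scaling to the leukocyte markers moved the median log2 fold change of all genes to -0.94 and left Selp as the only member called higher (log2 0.72, adjusted p = 0.0190 by the edgeR test). Vcam1 (-1.21, adjusted p = 0.00979), Icam1 (-0.70, adjusted p = 0.0409) and Itgb1 (-0.95, adjusted p = 0.00770) were then called lower, of which Itgb1 was at the shifted median, Vcam1 below it and Icam1 above it. With the same scaling, 9 of 11 other partners of Itgb1 and 4 of 5 epithelial markers were called lower and 0 higher. A call of lower on that scale is therefore not particular to these members. The share of all genes called is not given here. Selplg, Itgal and Itgb7 were at -0.10, -0.06 and -0.12 on that scale. Scaling to the endothelial markers moved the median to -0.61, and 0 members passed, with Selp at 0.998 (adjusted p = 0.198) and Sele at 0.51.

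Integrin chains that pair in 1 protein did not all change alike. Itgb2, the partner of Itgal, rose (log2 0.88 ± 0.13 (SE), adjusted p = 0.0241), and the log2 ratio of Itgal to Itgb2 was -1.35 ± 0.15 (SD, n = 3) in sgScramble tumors and -1.37 ± 0.14 (SD, n = 4) in icOVA tumors. The log2 ratio of Itga4 to Itgb1 was -4.89, -4.44 and -5.14 in the sgScramble tumors and -3.13, -3.95, -3.31 and -3.81 in the icOVA tumors. All icOVA tumors had more Itga4 per Itgb1 (mean difference 1.28, exact permutation p = 0.0571, 0.152 adjusted). The log2 fold change of Itgb1 was -0.04 and that of Itga4 was 1.23, so this difference largely restates the rise of Itga4. Itgb1 is made by nearly every cell that adheres, so the ratio does not measure the makeup of VLA-4. The log2 ratio of Itga4 to Itgb7 was -0.41, -0.17 and -0.62 in the sgScramble tumors and 0.69, -0.24, -0.15 and -0.16 in the icOVA tumors, where tumor 15 stood apart (mean difference 0.44, exact permutation p = 0.114).

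Each ligand was also set beside its receptor within a tumor. The log2 ratio of Selp to Selplg was -3.39, -2.82 and -2.86 in sgScramble tumors and -2.68, -2.14, -2.10 and -2.02 in icOVA tumors, higher in all 4 (mean difference 0.79, exact permutation p = 0.0571, 0.152 adjusted). The log2 ratio of Vcam1 to Itga4 was 4.79, 4.22 and 5.32 against 2.62, 3.93, 2.48 and 3.61, lower in all 4 (mean difference -1.62, same p-values). This difference also contains the rise of Itga4 (log2 1.23), beside -0.33 for Vcam1. Icam1 over Itgal was lower in 3 of 4 icOVA tumors than in any sgScramble tumor (mean difference -0.71, exact permutation p = 0.114). Madcam1, the mucosal ligand of the Itga4 and Itgb7 pair, had 0 to 6 counts per tumor, too few to be tested.

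Levels of different genes were compared only per length, as CPM per kilobase of exon. In sgScramble tumors the order was Itgb1 (211 ± 10.3, SD, n = 3), Vcam1 (94.3 ± 10.5), Icam1 (52.4 ± 3.34), Itgb7 (14.6 ± 1.64), Selplg (10.9 ± 2.05), Itgal (10.1 ± 3.05), Icam2 (2.57 ± 0.604), Itga4 (2.22 ± 0.595), Selp (1.32 ± 0.423) and Sele (0.567 ± 0.161). The means of Selplg and Itgal, and of Icam2 and Itga4, were closer than their SDs. In icOVA tumors the order was the same at the top and bottom: Itgb1 (205 ± 20.2, SD, n = 4), Vcam1 (74.9 ± 23.7) and Icam1 (59.6 ± 10.8) came first and Sele (1.33 ± 0.522) last. Itga4 (5.22 ± 1.36), Icam2 (4.89 ± 1.66) and Selp (4.07 ± 1.06) then had overlapping intervals of mean ± SD, as did Vcam1 and Icam1. Vcam1 and Icam1 were more abundant per kilobase than each of the 12 endothelial markers, of which Cdh5, VE-cadherin, was highest at 14.3 in sgScramble and 26.3 in icOVA tumors, while Icam2, Selp and Sele were below it. With the length of the longest transcript in place of all exons, Vcam1 reached 205 in sgScramble tumors, near Itgb1 at 226, and Selplg (20.2) passed Itgb7.

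**Figure D5:**
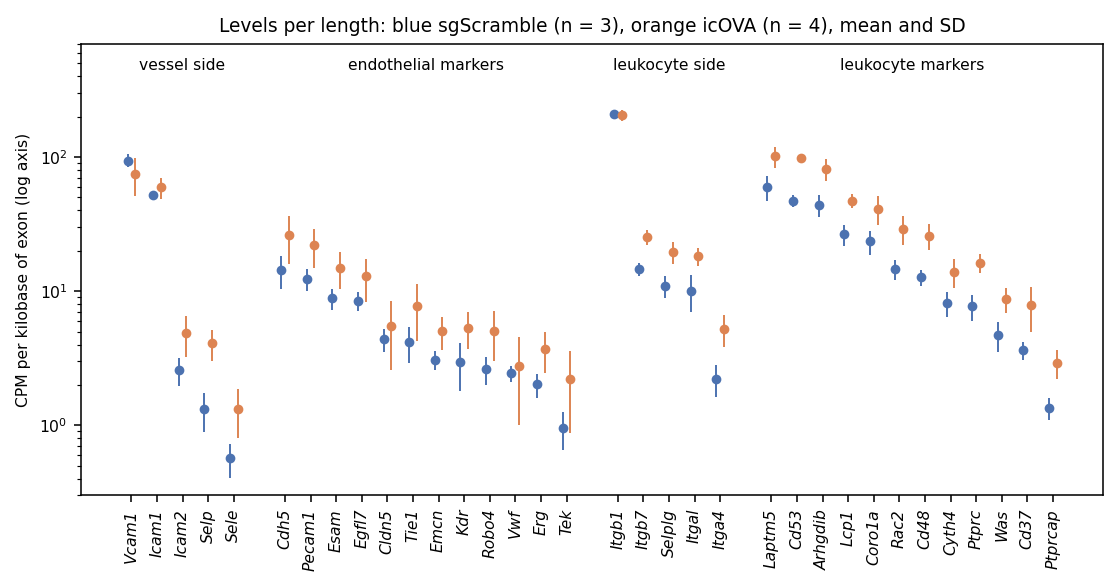
CPM per kilobase of exon (log axis) of the vessel genes beside 12 endothelial markers and of the leukocyte genes beside 12 leukocyte markers; points are means and bars SDs of 3 sgScramble (blue) and 4 icOVA (orange) tumors. Vcam1 (94.3 and 74.9) and Icam1 (52.4 and 59.6) lay above every endothelial marker, and Itgb1 (211 and 205) above every leukocyte marker.

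Other genes of these pathways were counted from lists. Over all genes tested, edgeR called 3.36% higher and 2.54% lower, and 11.3% separated the groups upward. Downward, 2332 of 17489 genes separated the groups. DESeq2 called 9.09% of the genes it tested higher and 7.45% lower. Of 14 other vessel adhesion genes tested, 0 passed the edgeR test (10 had an unadjusted p below 0.05, of which 9 were higher, and DESeq2 called 6 higher and 1 lower), and their median log2 fold change was 0.80. Ackr1, a chemokine carrier of venules, and Chst4, a sulfotransferase that completes selectin ligands on lymph node vessels, were the 2 whose groups separated upward and are named here for that reason. Cd99l2 was the 1 gene of this list whose groups separated downward (log2 -0.37, adjusted p = 0.0918). Ackr1 was at 1.18, 1.88 and 2.17 CPM against 5.65, 2.41, 12.9 and 5.88 CPM (log2 1.94, adjusted p = 0.0745), and Chst4 had a log2 fold change of 1.58 (adjusted p = 0.111). Of 11 other leukocyte adhesion genes, 5 rose and 0 fell, among them Itgb2, Fut7 (a fucosyltransferase that makes selectin ligands, log2 0.96, adjusted p = 0.0427), Spn (CD43, 0.93, adjusted p = 0.0360) and Itgam (the alpha chain of Mac-1, 0.83, adjusted p = 0.0271). Of 12 genes that switch integrins to their binding state, 2 rose, Skap1 (1.04, adjusted p = 0.0450) and Fyb (0.88, adjusted p = 0.0314), adaptors in T cells, and 9 separated the groups upward (DESeq2 called 10 higher). A list of 13 tested genes held inducers of vessel adhesion molecules, their receptors and the NF-kappaB genes Nfkbia, Relb and Nfkb2. Of these, 1 rose, the TNF receptor gene Tnfrsf1b (0.59, adjusted p = 0.0230). Nfkbia was among the 5 that separated the groups upward (DESeq2 called 6 higher). A single edgeR call among 13 genes gives little to set against 3.36% of all genes.

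Platelets, the other store of P-selectin, were followed by 4 tested markers, of which 0 passed the edgeR test, with a median log2 fold change of 1.01. Of these, 1 had an unadjusted p below 0.05, Ppbp, a platelet chemokine, which is named because its groups separated. It was at 0.403, 0.760 and 0.480 CPM in sgScramble tumors 1, 4 and 5 and at 2.92, 1.118, 1.35 and 1.93 CPM in icOVA tumors 15, 16, 18 and 2. All icOVA tumors were higher, at 14 to 108 counts per tumor, and the log2 fold change of 1.74 ± 0.41 (SE, adjusted p = 0.0514; DESeq2 adjusted p = 0.00370) was near that of Selp. The other tested markers were at log2 0.48 for Pf4 (adjusted p = 0.409), 0.51 for Itga2b (adjusted p = 0.338) and 1.51 for Gp1ba (adjusted p = 0.300). The sum of the 5 listed markers, of which Pf4 was the most abundant, was 11.03 to 16.3 CPM in sgScramble tumors and 19.96, 13.1, 33.7 and 17.8 CPM in icOVA tumors. The part of platelets in the rise of Selp was not tested. Of 8 markers of lymph node vessels and stroma, 5 could be tested, with a median log2 fold change of 1.58. Fut7 passed the edgeR test, DESeq2 called 3 higher, and 3 separated the groups upward: Chst4, Fut7 and Ccl19, a chemokine of lymphoid stroma (log2 1.63, adjusted p = 0.0838), which is also named for that reason. Chst4 and Fut7 were already counted in the lists above, Fut7 among the leukocyte adhesion genes, so they are not separate observations.

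Across the 7 tumors, the genes with log2 CPM most like each member were found by Pearson's r among 14128 genes, as a description over points that share the group difference. The genes named have the highest r of all these genes over only 7 points, so values this high can arise from the selection alone. Itga4 was closest to Ptprc (r = 0.993). Itgal was closest to Gpr65 (0.999) and 6530402F18Rik (0.998), Selplg to Pik3r6 and Tbkbp1 (0.997 for both), and Itgb7 to Agtrap (0.993) and Pim2 (0.989). Sele was closest to Plcb2 (0.999) and Cyth4 (0.998), Selp to Slc17a6 (0.991) and C5ar1 (0.990), and Icam2 to Agtr1a (0.996) and Stard8 (0.995). Vcam1 was closest to Xrcc6 (0.993) and St6gal1 (0.992), Icam1 to Ptprr (0.980) and Casp4 (0.977), and Itgb1 to Eif3a and Phf3 (0.994 for both).

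Which genes passed depended on single tumors. Leaving out sgScramble 1, sgScramble 5, icOVA 15 or icOVA 2 left 0 of the 10 genes called by edgeR. These omissions left 0, 0, 0 and 6 genes called higher in the whole table, although 3087, 2936, 3415 and 4008 genes still had an unadjusted p below 0.05 in either direction. Leaving out icOVA 16 raised the number of called members to 7, adding Icam2 (log2 1.13, adjusted p = 0.0297), Sele (1.40, adjusted p = 0.0418) and Itgal (0.91, adjusted p = 0.0455), and leaving out sgScramble 4 raised it to 5, adding Itgal (1.13, adjusted p = 0.0155). Genes called higher in the whole table ranged from 0 to 1014 over the omissions, against 588 with all tumors. The background for these member counts therefore moved too. Over the 7 omissions, the log2 fold change of Selp stayed between 1.45 and 1.92, of Itga4 between 1.06 and 1.45, of Selplg between 0.73 and 1.005, of Itgal between 0.73 and 1.13 and of Itgb7 between 0.71 and 0.89. DESeq2 called 7 of the 10 genes higher and 0 lower, against 9.09% and 7.45% of the genes it tested, adding Icam2 (adjusted p = 0.0305), Sele (0.0109) and Itgal (0.00102).

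Overlapping genes could affect these counts, since the strand setting of the counting was not stated. Gm43109, antisense to Vcam1, and Gm47079, antisense to Icam1, had at most 7 counts in a tumor. Cerkl, which overlaps Itga4 on the opposite strand, was at 2.47 to 4.25 CPM, far below Itga4, and had a log2 fold change of -0.23. Selp also overlaps 2 genes on the opposite strand, which were not analysed here.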

How the data were processed

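The authors deposited whole-number read counts per Ensembl gene for 7 whole tumors (TruSeq libraries, 12 PCR cycles; 76-base single reads according to the methods of the study). The submitters' processing notes name the mm10 build. The aligner, the counting program, its strand setting and the annotation were not given in the sources used here. The labels name polyA RNA and the methods a total RNA kit, and which applies was not settled. Identifiers were matched to GENCODE M21 symbols on GRCm38 (22414 of 22629 rows).

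Counts were tested in R 4.3.3 with edgeR 4.0.16 (filterByExpr, TMM, glmQLFit and glmQLFTest, Benjamini-Hochberg), on 4 icOVA against 3 sgScramble tumors with no covariate, since the study states no test for these data. SEs are the log2 fold change divided by the square root of F. Intervals are 95% and use the same SEs. Ratios used log2 CPM with a prior count of 2 and exact permutation tests (scipy 1.17.1). Alternatives were DESeq2 1.42.0, limma-voom (limma 3.58.1), other scalings, filters and omissions of each tumor. Scripts were tested on simulated counts. Sele had the fewest counts of the members, and the part of low counts in its SE was not tested.

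The members and gene lists were chosen with earlier results of these data known. Named genes were the members, OVA, Itgb2, Madcam1, Ptprc, Pecam1, the called genes of each list with the 3 largest and 3 smallest changes (or the most abundant gene where none was called), and the 2 genes most like each member by Pearson's r among genes with a mean count of at least 50. Marker genes are given mostly as sums. Tumors with other edits of the cancer cells were not analysed here, and a few named genes and 1 allele of the cell line are not reported here.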

Additional observations from a re-analysis of the deposited data

Results flagged for a closer look

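In icOVA tumor 15 the log2 ratio of Itga4 to Itgb7 was 0.69, against -0.24, -0.15 and -0.16 in icOVA tumors 16, 18 and 2. Its gap to the nearest tumor took up 0.895 of the range of the 4 tumors, above the 95% limit of Dixon's test for 4 values. Of 26 values examined in this way it was the only one, where chance gives about 1 in 20, or 1.3. In this tumor Itga4 was the highest of the icOVA tumors (99.4 CPM) and Itgb7 the lowest (61.8 CPM). The part of its cell makeup in this was not tested.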

How the results depend on the processing

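Total count scaling, upper quartile scaling, no filter and a robust fit gave 4 of the 10 adhesion genes called higher, and limma-voom, a filter of 10 counts in every tumor, median-of-ratios size factors and scaling to Tbp gave 5. The share of all genes called under each of these settings is not given here, so these counts have no background beside them. DESeq2 gave 7 (1558 genes higher and 1278 lower in the whole table), and a minimum log2 fold change of 0.5 gave 0 (2 genes higher and 0 lower). Omitting a tumor gave 0 to 7, with 0 to 1014 genes higher and 0 to 716 lower. Members called higher numbered 1 with scaling to the leukocyte markers and 0 with scaling to the endothelial markers, Ptprc or Pecam1, and those called lower numbered 3 with scaling to the leukocyte markers or Ptprc. Such scaling moved the median of all genes to -0.94 (leukocyte markers), -1.10 (Ptprc), -0.61 (endothelial markers) and -0.74 (Pecam1), so log2 fold changes of several genes turned negative by construction. With the leukocyte markers and with Ptprc, these were Icam1 (-0.70 and -0.88), Icam2 (-0.041 and -0.18), Selplg (-0.10 and -0.24), Itgal (-0.060 and -0.21), Itgb7 (-0.12 and -0.27), Itgb2 (-0.032 and -0.19), Pecam1 (-0.14 and -0.27), Itgam (-0.059 and -0.23), Spn (-0.0093 and -0.16), Fut7 (-0.0055 and -0.15), Fyb (-0.044 and -0.20) and Tnfrsf1b (-0.32 and -0.49), and with Ptprc also Skap1 (-0.054). Icam1 was at -0.33 with the endothelial markers and -0.48 with Pecam1, where Tnfrsf1b was at -0.13. Itgb1 turned to 0.019 with Tbp and ranged from -0.094 to 0.017 over omissions of a tumor. With the median over the markers, the ratios of Selplg, Itgal and Itgb7 to the leukocyte markers differed by 0.055, 0.091 and 0.0075. Over omissions, Itgal over the leukocyte markers ranged from -0.12 to 0.038 and Itgal over Itgb2 from -0.091 to 0.063; the other ratios kept their direction, and 0 of 16 passed the threshold, which 3 against 4 tumors cannot reach.

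With the longest transcript as length, levels per kilobase were, in sgScramble and icOVA tumors, 205 and 162 for Vcam1, 90.1 and 102 for Icam1, 3.82 and 7.26 for Icam2, 20.2 and 36.3 for Selplg and 3.18 and 7.48 for Itga4. Selp was then at 5.23 and Itgal at 22.9 in icOVA tumors, and Itgb1 at 226 in sgScramble tumors. No paired analysis was possible because none of the 7 tumor numbers occurs in both groups. Counts of 45 to 208 per tumor limit Sele most.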
